A study of Mus musculus with 8 samples.

Results

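The interleukin 1 and 18 axis is described here through 10 genes, 10 of the 49671 genes counted in mouse back skin: the ligands Il1a, Il1b and Il18, the antagonist and decoys Il1rn, Il1r2 and Il18bp, the receptor chains Il1r1, Il1rap and Il18r1, and the protease Casp1. They were taken by symbol, and all 10 were found. The samples were whole back skin, shaved, from mice of 8 weeks with the flg genotype ko/ko (KO, 4 libraries) or wt/wt (WT, 4 libraries), with no treatment named. No source used here gives the strain or how the Flg allele was made, nor whether each library came from a separate mouse, so p-values measure the spread between these libraries, which may be technical. Filaggrin, the product of Flg, is a structural protein of the cornified layer. The comparison asks how whole skin differs between these genotypes.

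Keratinocytes hold interleukin 1 alpha and the interleukin 18 precursor in reserve, so that damage to the epidermis can release them as alarm signals. Interleukin 1 beta is made mainly by myeloid cells after stimulation, and caspase-1, activated in inflammasomes, cuts the precursors of interleukin 1 beta and interleukin 18 into active cytokines. Both interleukin 1 agonists bind the receptor chain encoded by Il1r1, which then recruits the accessory chain encoded by Il1rap and signals through MyD88 to NF-kB. The product of Il1rn occupies the receptor without recruiting the accessory chain, the product of Il1r2 captures ligand but lacks a signalling domain, and the product of Il18bp binds interleukin 18 in solution. Cleavage, release and binding are protein events that transcript counts do not show.

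The RefSeq promoters of 4 members are shown because they belong to the ligand genes that varied most between libraries, Il1a and Il1b, and to the receptor genes with the smallest p-values, Il1r1 and Il1r2. Each run is the 250 bases before the RefSeq start site, 5′ to 3′ on the gene's strand, in GRCm38.p6 coordinates of the same mm10 build. Capitals mark matches to the TATA box letters TATAAA or the AP-1 letters TGANTCA. The NF-kB letters, GGG, NN and TTTCC in a row, were searched too, all on both strands; the motifs share no matched bases here. Il1a lies on chr2:129309973-129310222, minus strand. Il1b lies on chr2:129371140-129371389, minus strand. Il1r1 lies on chr1:40224830-40225079, plus strand, and Il1r2 on chr1:40085843-40086092, plus strand.
Il1a: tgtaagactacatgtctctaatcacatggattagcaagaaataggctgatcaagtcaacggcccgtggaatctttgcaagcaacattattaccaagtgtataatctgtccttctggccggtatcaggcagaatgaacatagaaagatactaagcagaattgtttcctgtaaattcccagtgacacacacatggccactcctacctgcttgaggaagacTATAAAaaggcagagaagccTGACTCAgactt
Il1b: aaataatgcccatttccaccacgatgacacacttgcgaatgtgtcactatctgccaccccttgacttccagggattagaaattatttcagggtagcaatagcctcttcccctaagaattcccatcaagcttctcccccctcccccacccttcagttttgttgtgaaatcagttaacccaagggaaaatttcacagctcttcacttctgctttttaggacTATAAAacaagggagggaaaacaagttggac
Il1r1: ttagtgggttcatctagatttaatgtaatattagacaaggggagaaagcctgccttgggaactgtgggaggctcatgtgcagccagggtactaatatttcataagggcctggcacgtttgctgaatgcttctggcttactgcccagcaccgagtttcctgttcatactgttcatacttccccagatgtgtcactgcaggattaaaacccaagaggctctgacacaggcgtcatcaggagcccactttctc
Il1r2: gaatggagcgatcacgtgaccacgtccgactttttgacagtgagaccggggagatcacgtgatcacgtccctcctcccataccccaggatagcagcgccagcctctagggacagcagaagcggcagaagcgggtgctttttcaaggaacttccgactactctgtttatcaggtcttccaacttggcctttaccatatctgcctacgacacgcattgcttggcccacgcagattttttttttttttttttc
The TATA match began 32 bases before the start site in Il1a and 31 bases before it in Il1b, and the AP-1 match in Il1a began 12 bases before it. None of these letters were found in the Il1r1 and Il1r2 windows. Over the 10 members, with 15 windows between them, the TATA letters occurred in 3 genes (Il1a, Il1b and Il18), the AP-1 letters in 2 (Il1a and Il1rn) and the NF-kB letters in 1 (Il1rn, at another start site). The Il18 match was on the opposite strand, 175 to 170 bases before the start site. These counts are per gene, and the shares that follow are per window. Of 32851 RefSeq windows of this length, 12.37% held the TATA letters, 6.75% the AP-1 letters and 1.41% the NF-kB letters. These matches are descriptions of sequence and were tested for no function. The Il1r2 start site shown is not the first base of the gene in the count table.

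Levels are given as CPM, the reads of a gene scaled to a common library size with TMM factors, and library totals ran between 18483242 and 38545957 reads. Flg was lower in KO, at 24.5 ± 1.97 CPM (SD, n = 4), against 59.0 ± 9.77 CPM in WT (SD, n = 4; log2 fold change -1.27 ± 0.12 SE, edgeR adjusted p = 0.00326), so that 41.55% of the WT level of Flg transcript was still counted in KO. The epidermis was well represented: Krt5, a keratin of basal keratinocytes, lay between 2091 and 2475 CPM in KO and between 2534 and 2710 CPM in WT. Summed white adipocyte markers lay between 7136 and 9189 CPM in KO and between 5089 and 9060 CPM in WT, where replicate 3 stood apart from the other WT libraries at 5089 to 6147 CPM. Summed basal keratinocyte markers lay between 6870 and 7680 CPM in KO and between 7886 and 9017 CPM in WT, without overlap. That sum is mostly the keratins Krt5, Krt14 and Krt15, with log2 fold changes of -0.21, -0.25 and -0.41. Itgb4 and Lamb3 stood at -0.12 and -0.15, and Trp63, Itga6 and Col17a1 at -0.01, 0.02 and -0.02. Taken singly, 1 of 8 of these markers did not overlap between groups, where 11.5% of all genes did not. Of the white adipocyte markers, 16 of 17 had log2 fold changes above 0 (median 0.75), and 12 of 17 were higher in KO at an unadjusted p under 0.05, where 8.64% of all genes were. Between groups, 4 of 17 did not overlap, where 11.5% of all genes did not. Of the T and natural killer cell markers, 10 of 13 were lower in KO at an unadjusted p under 0.05, where 10.9% of all genes were. Of these markers 8 of 13 did not overlap, against the same 11.5% of all genes. After adjustment, where 1.41% of all genes were called, 2 of 13 T and natural killer cell, 2 of 10 suprabasal keratinocyte and 1 of 9 Langerhans or dendritic cell markers were lower and 1 of 10 macrophage markers was higher. The Langerhans or dendritic call was Epcam, at -0.35 ± 0.07 (SE), while Cd207 stood at 0.12 ± 0.17. In that list 2 of 9 log2 fold changes were above 0 and 7 below. The macrophage call was Mrc1, at 0.58 ± 0.12 (SE), while Lyz2 stood at -0.56 ± 0.18. Of the 10 macrophage markers 7 had log2 fold changes above 0 and 3 below. Markers of basal keratinocytes, neutrophils, mast cells, white adipocytes, sebaceous glands, fibroblasts, endothelium and skeletal muscle had 0 called. None of the marker lists held a gene at 0 in all 8 libraries, although only 4 of 10 neutrophil markers passed the filter on low counts. In whole skin, fewer cells of a type and less RNA per cell cannot be told apart.

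None of the 10 members passed the main test between genotypes. All 10 passed the filter on low counts, and edgeR's quasi-likelihood test with Benjamini-Hochberg adjustment over 19099 genes called 0 of 10 at an adjusted p under 0.05, where it called 1.41% of all genes, 0.712% higher and 0.702% lower in KO. At an unadjusted p under 0.05 there were 2 of 10, both higher in KO (Il1r1 and Il1r2), against 19.5% of all genes, 8.64% higher and 10.9% lower in KO. The CPM of the groups did not overlap in 1 of 10 (Il1r2), against 11.5% of all genes. With 10 genes, these counts are near what such shares give. Of the members 7 had log2 fold changes above 0 and 3 below, with a median of 0.15, against -0.02 over all genes tested. DESeq2 called 2 of 10, Il1r1 (adjusted p = 0.0437) and Il1r2 (adjusted p = 0.0321), where it called 6.59% of genes. With limma voom and quality weights 1 of 10 was called, Il1r1 (adjusted p = 0.0488), where 13.4% of genes were called.

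**Figure D1:**
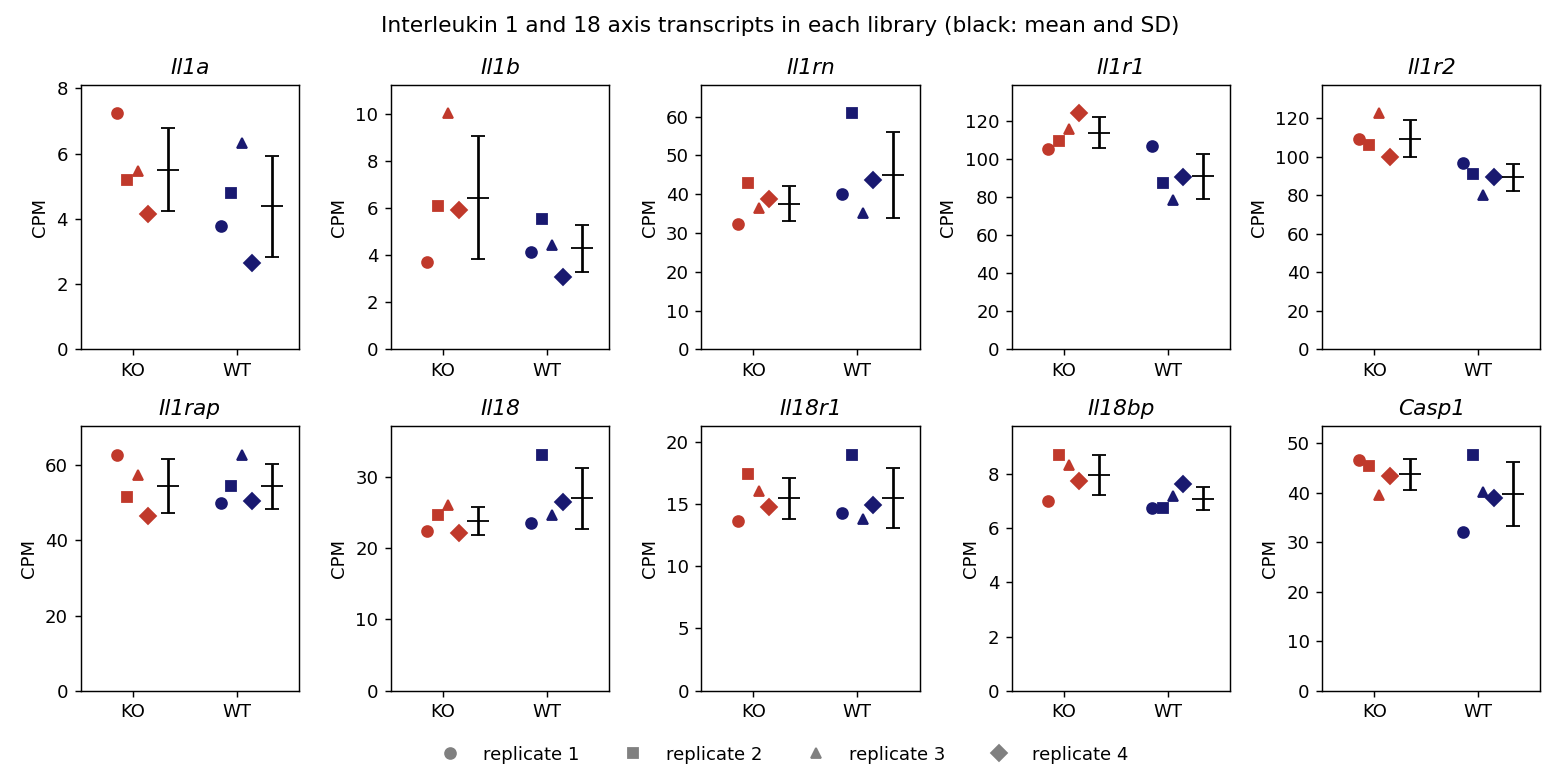
CPM of each member in every library, with replicates as symbols and the mean and SD beside them (KO left, WT right, each axis from 0). Il1r2 is the member in which every KO library lies above every WT library, the lowest KO value being 99.8 CPM and the highest WT value 96.8 CPM.

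The agonist ligands were expressed at a low level and varied widely among libraries. Il1a, on chromosome 2 from 129299610 to 129309972, had 7.24, 5.19, 5.46 and 4.15 CPM in KO, against 3.78, 4.78, 6.32 and 2.65 CPM in WT. The groups overlapped, with the highest value in KO replicate 1 and the lowest in WT replicate 4. The log2 fold change was 0.34 ± 0.26 (SE, edgeR adjusted p = 0.496). Il1b, on the same chromosome from 129364570 to 129371139, had 3.74, 6.10, 10.04 and 5.95 CPM in KO, against 4.16, 5.53, 4.42 and 3.09 CPM in WT. KO replicate 3 stood highest of all, and KO replicate 1 fell within the WT range. The log2 fold change was 0.58 ± 0.28 (SE, adjusted p = 0.289), and its 95% interval from -0.04 to 1.20 includes no change as well as a difference of more than 1 log2 unit. With the white adipocyte list mean as a covariate the value was 0.94, and with that of basal keratinocytes 0.02, neither called. The basal keratinocyte mean ran from 8.985 to 9.196 log2 CPM in KO and from 9.197 to 9.287 log2 CPM in WT. It did not overlap between genotypes, so that fit cannot tell it apart from genotype. The white adipocyte mean ran from 7.476 to 8.088 log2 CPM in KO and from 6.636 to 7.774 log2 CPM in WT. These ranges overlapped only through KO replicate 3 and WT replicate 3, so that covariate can hardly be told apart from genotype either. Without KO replicate 3 the log2 fold change of Il1b was 0.28, and that of Il1a lay between 0.16 (without WT replicate 4) and 0.57 (without WT replicate 3), at 0.17 without KO replicate 1. The coefficient of variation of Il1b was 40.6% in KO and 23.4% in WT, and that of Il1a 23.3% in KO and 35.5% in WT. Both rest on few reads, 97 to 275 in KO and 67 to 150 in WT for Il1a, and 114 to 241 in KO and 78 to 144 in WT for Il1b. Il1a shares 222 exon bases, or 11.2% of its exons, with Gm14023 on the opposite strand, which had 16 to 38 reads in KO and 22 to 38 in WT. The strand setting of the counting is not given, so reads of such a pair cannot be told apart. Il1b shares 25 exon bases with Il1bos, 1.3% of its exons.

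The third ligand gene, Il18 (chromosome 9, 50554827 to 50581840), was steadier. It had 22.3, 24.7, 26.1 and 22.1 CPM in KO, against 23.6, 33.1, 24.7 and 26.5 CPM in WT. The KO values lay within or just below the WT range, whose highest value came from WT replicate 2. The log2 fold change was -0.18 ± 0.12 (SE, edgeR adjusted p = 0.434), with a 95% interval from -0.44 to 0.08, and it was -0.07 without WT replicate 2. Casp1 (chromosome 9, 5298517 to 5307265), whose product matures interleukin 18 and interleukin 1 beta, had 46.6, 45.3, 39.5 and 43.3 CPM in KO, against 32.1, 47.7, 40.2 and 39.0 CPM in WT. WT libraries included both the lowest and the highest value. Its log2 fold change was 0.14 ± 0.12 (SE, adjusted p = 0.543), 0.05 without WT replicate 1 and 0.24 without WT replicate 2.

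Among receptor chains and the decoy receptor, Il1r1 and Il1r2 had the smallest p-values of the axis. Il1r2 (chromosome 1, 40074079 to 40125231) had 109, 106, 123 and 99.8 CPM in KO, against 96.8, 91.0, 80.0 and 89.3 CPM in WT. Every KO library was above every WT library, by a margin smaller than the spread within either group. The log2 fold change was 0.29 ± 0.09 (SE, 95% interval 0.10 to 0.49, edgeR adjusted p = 0.111). Il1r1 (chromosome 1, 40225080 to 40317257), the signalling receptor, had 106, 110, 116 and 124 CPM in KO, against 107, 87.8, 78.6 and 90.9 CPM in WT. Only WT replicate 1 reached the KO range. The log2 fold change was 0.32 ± 0.10 (SE, 95% interval 0.10 to 0.54, adjusted p = 0.123). Il1r1 is expressed by many stromal cells, and the summed fibroblast markers lay between 25940 and 37590 CPM in KO and between 23410 and 37250 CPM in WT. That sum is mostly the collagen genes Col1a1, Col1a2 and Col3a1, whose log2 fold changes lay between -0.12 and -0.03. In the same list Pdgfra, a receptor of fibroblasts, had 336, 268, 269.6 and 308 CPM in KO, against 219.9, 150.3, 218 and 190.4 CPM in WT (log2 fold change 0.60 ± 0.13 SE, edgeR adjusted p = 0.0502), and Pi16 stood at 0.37 ± 0.15 (0.206). All KO libraries were above all WT libraries for Pdgfra. The other markers of the list, Dpt, Lum and Dcn, stood at 0.01, -0.14 and -0.02. Over the whole list 3 log2 fold changes were above 0 and 5 below, with a median of -0.03. With the white adipocyte list mean as a covariate the log2 fold change was 0.48 for Il1r2 and 0.47 for Il1r1. With that of basal keratinocytes it was 0.07 for Il1r2 and 0.32 for Il1r1, and none of these 4 values was called. Because the basal keratinocyte mean did not overlap between genotypes, its part cannot be told apart from that of genotype. The white adipocyte mean overlapped only through KO replicate 3 and WT replicate 3, so its part can hardly be told apart either. The part of fibroblasts in the Il1r1 and Il1r2 values was not tested.

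The decoy and the signalling receptor kept a like ratio in both genotypes. Per kilobase of exon, Il1r2 stood at 3.22 ± 0.38 times the level of Il1r1 in KO (SD, n = 4) and at 3.29 ± 0.20 times in WT (SD, n = 4), as a description with no test. Il1rap (chromosome 16, 26581704 to 26730117), the shared accessory chain, had 62.7, 51.4, 57.5 and 46.4 CPM in KO, against 49.9, 54.4, 62.9 and 50.5 CPM in WT. The groups covered the same range, with a log2 fold change of 0.00 ± 0.11 (SE, edgeR adjusted p = 0.989) and a 95% interval from -0.24 to 0.25. Il18r1 (chromosome 1, 40465552 to 40500854), the ligand-binding chain for interleukin 18, had 13.7, 17.5, 16.0 and 14.7 CPM in KO, against 14.2, 19.0, 13.8 and 14.9 CPM in WT. Its values also overlapped throughout, with a 95% interval of the log2 fold change from -0.29 to 0.28 (adjusted p = 0.992). The counts do not separate membrane from soluble forms of Il1rap, which shares 552 exon bases, 4.9% of its exons, with Gm20319 on the opposite strand.

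The antagonist Il1rn (chromosome 2, 24336853 to 24351494) had more transcript per kilobase than the other secreted inhibitor, Il18bp. It had 32.3, 42.9, 36.4 and 38.7 CPM in KO, against 40.2, 60.9, 35.3 and 43.7 CPM in WT. WT replicates 2 and 4 were above every KO library, and WT replicates 1 and 3 lay within the KO range. The log2 fold change was -0.26 ± 0.16 (SE, edgeR adjusted p = 0.390), and -0.08 without WT replicate 2. The secreted and intracellular forms of the antagonist come from different start sites of this gene and were counted together. Il18bp (chromosome 7, 102014885 to 102018690) had 7.03, 8.73, 8.33 and 7.74 CPM in KO, against 6.76, 6.76, 7.20 and 7.64 CPM in WT. KO replicate 1 lay within the WT range and the other KO libraries above it. The difference of 0.16 ± 0.12 on the log2 scale (SE) did not pass the edgeR test (adjusted p = 0.474). Il18bp shares 80 exon bases, 2.6% of its exons, with Numa1 on the opposite strand, which had 4074 to 9955 reads in KO and 4470 to 6623 in WT.

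Set against their ligands per kilobase of exon, the inhibitors gave ratios that are described without a test. The ratio of Il1rn to Il1a was 1.59, 2.95, 2.38 and 3.33 in KO, against 3.79, 4.54, 1.99 and 5.88 in WT. The ratio of Il1rn to Il1b was 2.98, 2.42, 1.25 and 2.24 in KO, against 3.33, 3.79, 2.75 and 4.88 in WT. Both ratios were lower on average in KO and overlapped between groups, through WT replicate 3 in each case and KO replicate 1 in the ratio to Il1b. The ratio of Il18bp to Il18 was 0.107, 0.121, 0.109 and 0.119 in KO, against 0.0977, 0.0695, 0.0996 and 0.0982 in WT. Here every KO value was above every WT value, the lowest in KO being 0.107 and the highest in WT 0.0996. Il18bp and Il18 each overlapped between groups when taken singly. For scale, 11.5% of all genes did not overlap, and no such share was computed for ratios.

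Levels of different genes were compared only per kilobase of exon (RPKM, computed from CPM and the exon length in the count table). Il1r2 was highest, at 57.4 ± 5.04 RPKM in KO and 46.8 ± 3.64 RPKM in WT (SD, n = 4 each), and its lowest library exceeded the highest Casp1 library in both genotypes. Casp1 followed at 29.2 ± 2.08 RPKM in KO and 26.5 ± 4.28 RPKM in WT, and Il18 at 23.1 ± 1.87 RPKM in KO and 26.2 ± 4.16 RPKM in WT. Their ranges overlapped in WT and not in KO. Il1r1 came next at 17.9 ± 1.27 RPKM in KO and 14.3 ± 1.88 RPKM in WT, then Il1rn at 6.79 ± 0.80 RPKM in KO and 8.13 ± 2.01 RPKM in WT, and Il1rap at 4.80 ± 0.63 RPKM in KO and 4.79 ± 0.53 RPKM in WT. Down to Il1rn, neighbours in this order were otherwise apart in every library. The remaining members, Il1b, Il18r1, Il1a and Il18bp, stood between 2.63 and 3.39 RPKM in KO and between 2.22 and 3.21 RPKM in WT. Their neighbours overlapped in both genotypes, except that Il18r1 was above Il18bp in every WT library. Exon length here counts all annotated exons, 11360 bases for Il1rap and 1031 for Il18, so that a gene with long alternative exons is set low.

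**Figure D2:**
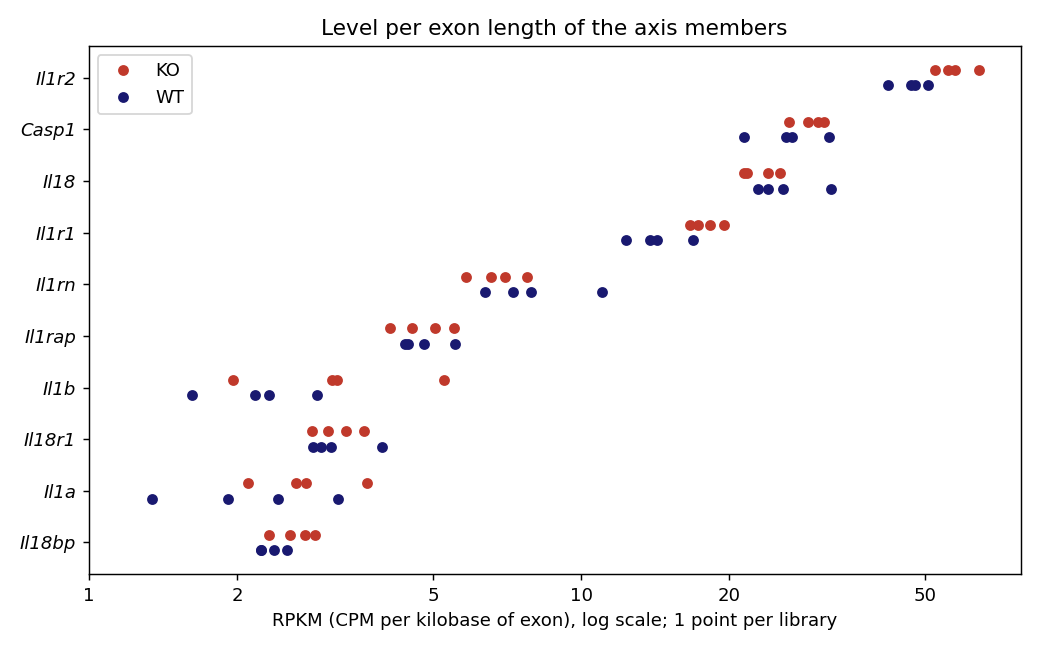
RPKM of each member on a log axis, 1 point per library (KO above, WT below in each row), ordered by the KO mean. Il1r2 lies at the top, with 52.3 to 64.3 RPKM in KO and 41.9 to 50.7 RPKM in WT, and Il1a, Il1b, Il18r1 and Il18bp crowd together at the bottom.

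**Figure D3:**
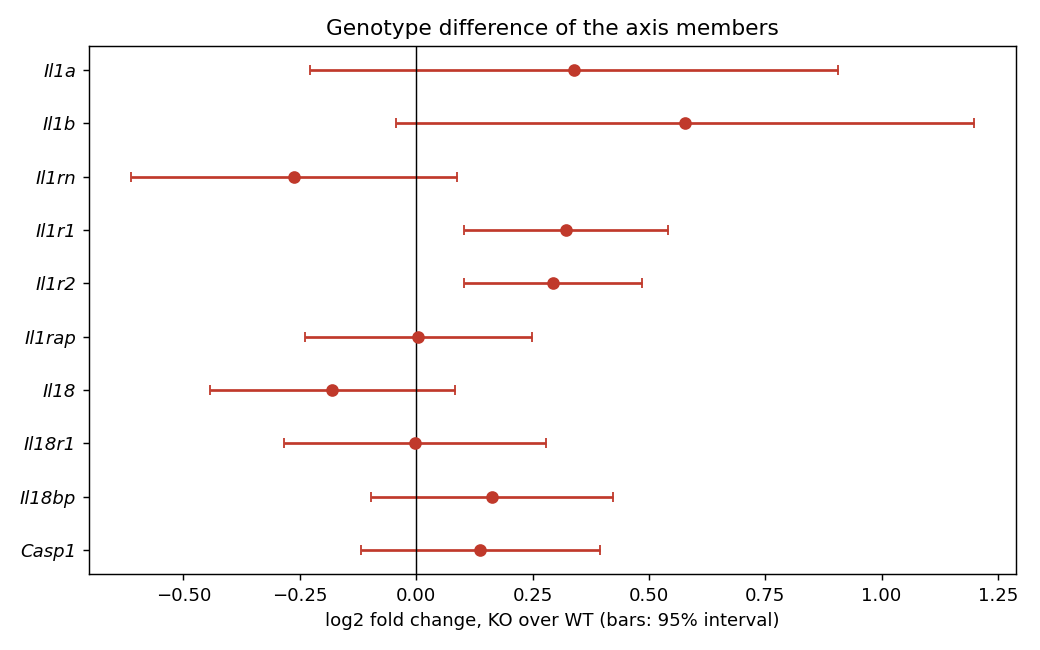
Log2 fold change of KO over WT for each member, with 95% intervals from the edgeR fit that are not adjusted for the number of genes. The widest intervals are those of Il1a and Il1b, and those of Il1r1 and Il1r2 alone do not reach 0.

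The intervals give the fold differences compatible with these libraries. The fold difference of Il1rap was bounded between 0.847 and 1.19, that of Il18r1 between 0.821 and 1.21 and that of Casp1 between 0.921 and 1.32 (95% intervals, KO over WT). For Il1b the bounds were 0.971 and 2.30, and for Il1a 0.854 and 1.88. Each of these intervals includes no change. They are ranges around the observed folds and not limits of what could be detected.

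Different libraries held the extremes of different members. WT replicate 2 was the highest WT library for 5 members (Il1b, Il1rn, Il18, Il18r1 and Casp1) and the highest of all 8 for 4 of them. KO replicate 1 was the lowest KO library for 5 members, yet the highest for Il1a, Il1rap and Casp1. KO replicate 3 was the highest KO library for Il1b, Il1r2 and Il18. That library also had the largest sum of macrophage markers, 3405 CPM, against 2316 to 2995 CPM in the other KO libraries and 2320 to 3081 CPM in WT. KO replicate 1, with a sum of 2995 CPM, had the lowest KO value of Il1b, 3.74 CPM. WT replicate 3, with a sum of 3081 CPM, had 4.42 CPM of Il1b. The largest parts of that sum were Lyz2 and Mrc1, which went opposite ways between genotypes (log2 fold changes -0.56 and 0.58). Whether macrophage amount bears on Il1b was not tested.

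**Figure D4:**
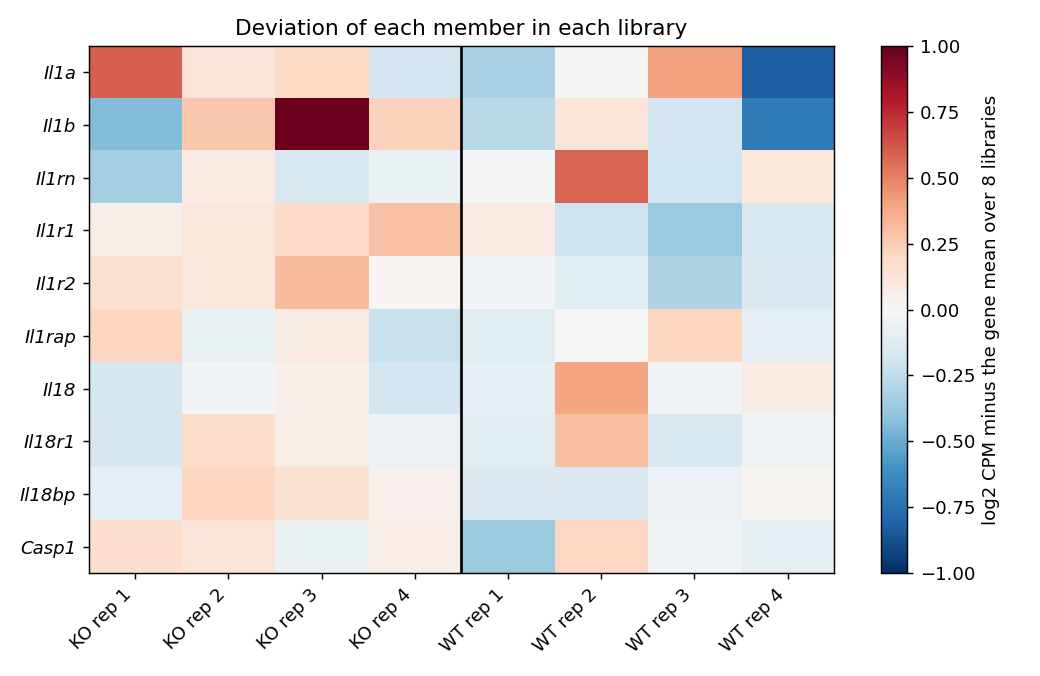
Log2 CPM of each member in each library minus its mean over the 8 libraries (KO left, WT right of the line; red above the mean, blue below). Il1b in KO replicate 3 is 0.98 above its mean and Il1a in WT replicate 4 is 0.82 below, written -0.82, while Il1r1 and Il1r2 are mostly red in KO and blue in WT.

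The genes whose pattern over the 8 libraries was most like that of Il1r2, the member with the smallest p, were Rgs14, Cradd and Tfpi. Likeness was the root mean square difference in log2 CPM after each gene was centred on its mean, over 15268 candidate genes. It was 0.06 for Rgs14, 0.07 for Cradd and 0.08 for Tfpi. None of them passed the edgeR test (Tfpi was called by DESeq2, at 0.0379), with adjusted p of 0.200 for Rgs14, 0.376 for Cradd and 0.126 for Tfpi.

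Of the other interleukin 1 family genes, 9 of 12 passed the filter on low counts and 0 were called by edgeR (2 above and 7 below 0, median log2 fold change -0.22). At an unadjusted p under 0.05, 0 were higher and 1 lower, where 8.64% of all genes were higher and 10.9% lower. Il18rap, the signalling chain of the interleukin 18 receptor, had 6.29, 4.34, 4.25 and 5.57 CPM in KO, against 7.92, 6.64, 8.59 and 6.65 CPM in WT. Every KO library was below every WT library, and the log2 fold change of -0.53 ± 0.16 (SE) did not pass the edgeR test (adjusted p = 0.123), while limma voom with quality weights gave an adjusted p of 0.0491. Il18rap is expressed by lymphocytes, and 12 of 13 T and natural killer cell markers had log2 fold changes below 0 (median -0.73, with 2 called). Their summed level lay between 235 and 329 CPM in KO and between 214 and 329 CPM in WT. Most of that sum was Thy1, which stromal cells also express, at 189 to 269 CPM in KO and 131.5 to 227 CPM in WT, and the part of these cells in the Il18rap value was not tested. Its partner Il18r1, given above, stood at -0.00 ± 0.13 (SE), and the difference between the 2 genes was not tested. Il1rl1, the interleukin 33 receptor, stood at -0.34 ± 0.19 and the ligand genes Il1f8 and Il1f9, encoding interleukins 36 beta and 36 gamma, at -0.49 ± 0.30 and -0.22 ± 0.14 (SE). The adjusted p-values of these 3 genes lay between 0.361 and 0.404.

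Inflammasome and processing genes had 19 of 20 tested and 0 called, with 5 higher and 5 lower at an unadjusted p under 0.05, where 8.64% of all genes were higher and 10.9% lower, and 4 of 19 not overlapping, where 11.5% of all genes did not. Nlrp3, a sensor that activates caspase-1, had 3.50, 5.25, 5.33 and 5.16 CPM in KO, against 3.73, 1.98, 2.28 and 2.85 CPM in WT. KO replicate 1 fell within the WT range, and the log2 fold change was 0.81 ± 0.22 (SE, edgeR adjusted p = 0.0955), called by DESeq2 (adjusted p = 0.0152), by limma voom (0.0429) and by edgeR with no filter (0.0498). Nlrp1a, another such sensor, stood at 0.37 ± 0.11 (adjusted p = 0.105), with DESeq2 at 0.0250 and limma voom at 0.0355. The gasdermin A genes, of a family of pore-forming proteins, were lower in mean. Gsdma2 had 0.263, 0.696, 0.458 and 0.449 CPM in KO, against 4.74, 0.514, 5.01 and 3.80 CPM in WT, where replicate 2 stood at the KO level. Its log2 fold change was -2.98 ± 0.62 (SE, adjusted p = 0.0502; DESeq2 2.62e-05, limma voom 0.0113). Without WT replicate 2 it was -3.34 ± 0.27 (edgeR adjusted p = 0.000737), and without WT replicate 3 it was -2.76 ± 0.66 (0.0437). Leaving out any other library gave no call (edgeR adjusted p 0.1036 to 0.1585). It was also not called by edgeR with no filter (0.158), the white adipocyte covariate (0.147) or the basal keratinocyte covariate (0.504). Gsdma stood at -0.50 ± 0.16 (adjusted p = 0.131; limma voom 0.0365). The gasdermin A genes are close relatives, so reads may be split between them in ways the counts do not show.

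The receptor signalling genes had values near 0. All 19 of 19 were tested, 0 were called, their median log2 fold change was 0.03, and their folds of KO over WT lay between 0.841 and 1.27. At an unadjusted p under 0.05, 1 was higher and 1 lower, where 8.64% of all genes were higher and 10.9% lower. Irak3, which restrains signalling below the receptor, had 33.97, 43.8, 46.8 and 41.8 CPM in KO, against 31.6, 33.4, 32.2 and 33.9 CPM in WT. All KO libraries were above all WT libraries, KO replicate 1 only just, and the log2 fold change of 0.34 ± 0.10 (SE) had an edgeR adjusted p of 0.113 and adjusted p of 0.0354 by DESeq2 and 0.0442 by limma voom. Tab1, Peli1 and Rela, a kinase adaptor, a ubiquitin ligase and an NF-kB subunit, stood at -0.25 ± 0.11, -0.17 ± 0.10 and -0.09 ± 0.07 (SE), with adjusted p between 0.241 and 0.485.

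Genes that interleukin 1 or 18 can induce had 17 of 23 tested and 0 called, with 7 above and 10 below 0. At an unadjusted p under 0.05, 1 was higher and 2 lower, where 8.64% of all genes were higher and 10.9% lower. Nfkbiz, an NF-kB cofactor, had 47.5, 46.3, 54.6 and 49.4 CPM in KO, against 69.6, 70.7, 55.8 and 61.0 CPM in WT. The groups did not overlap, and the log2 fold change was -0.38 ± 0.10 (SE, edgeR adjusted p = 0.0759). It was called by DESeq2 (adjusted p = 0.0175), by limma voom (0.0165) and, without WT replicate 3, by edgeR (0.0221). That last fit called 679 genes higher and 646 lower, against 136 and 134 in the main comparison. Of 16 alternatives 13 did not call Nfkbiz. Its log2 fold change ran from -0.56 to -0.14 over the alternatives, with adjusted p up to 0.694. The calprotectin subunits S100a8 and S100a9 went opposite ways in mean. S100a8 had 6.74, 4.28, 7.54 and 3.25 CPM in KO, against 0.925, 5.61, 1.69 and 0.831 CPM in WT, and the log2 fold change was 1.29 ± 0.58 (SE, edgeR adjusted p = 0.266; limma voom 0.0229). WT replicate 2 lay among the KO libraries, and without it the log2 fold change was 2.27 ± 0.36 (edgeR adjusted p = 0.0143). Of 16 alternatives 14 did not call S100a8. Over them all its log2 fold change ran from 0.16 to 2.27, with adjusted p up to 0.948. S100a9 had 0.921, 2.46, 1.25 and 1.23 CPM in KO, against 3.44, 1.74, 3.20 and 3.44 CPM in WT, and here it was -1.06 ± 0.32 (SE, edgeR adjusted p = 0.118; DESeq2 0.0379, limma voom 0.0300). KO replicate 2 and WT replicate 2 overlapped the other group. Neutrophils are known for these subunits, and summed neutrophil markers lay between 9.42 and 11.7 CPM in KO and between 9.04 and 24.1 CPM in WT. Most of that sum was Csf3r, at 7.39 to 9.015 CPM in KO and 5.66 to 12.8 CPM in WT. Only 4 of 10 neutrophil markers passed the filter on low counts, and the part of neutrophils was not tested. Lcn2, an antimicrobial protein gene, stood at 0.69 ± 0.25 (adjusted p = 0.176).

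**Figure D5:**
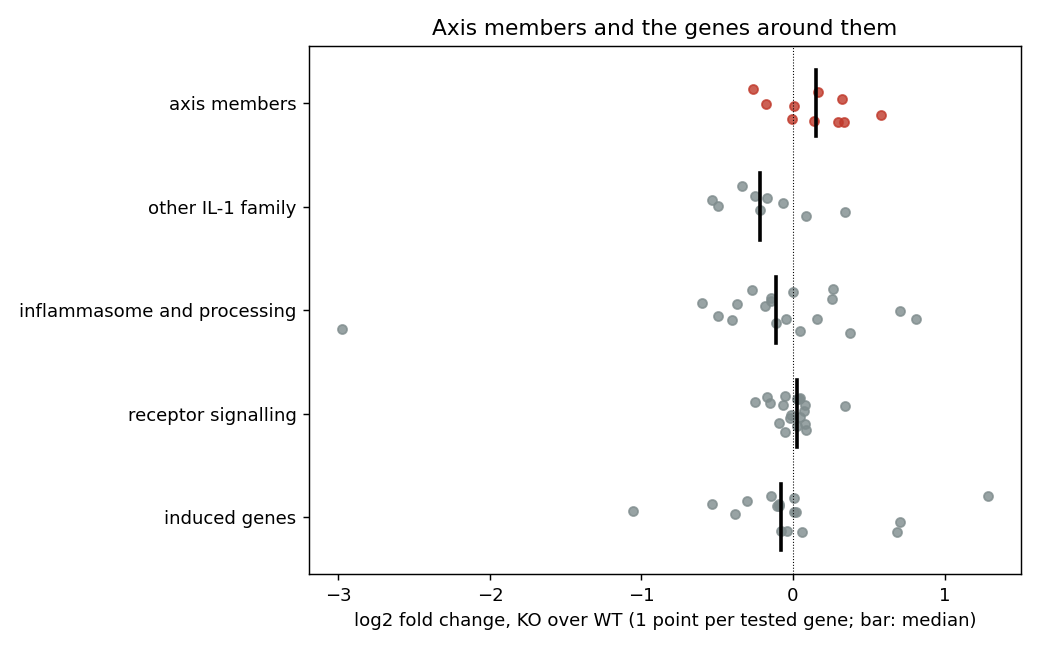
Log2 fold change of KO over WT for every tested gene of the axis and of the 4 surrounding lists, with the median as a bar. The receptor signalling genes lie near 0, and Gsdma2, at -2.98, is the point farthest out.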

How the data were processed

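Raw read counts per gene were deposited by the authors for 8 libraries of whole back skin, as whole numbers with no normalization. Per the submitters' processing notes, GSNAP and featureCounts 1.6.2 were used with build mm10. Per the labels, a strand-specific kit was used, while the design text names a SMART protocol; the strand setting and the handling of multiple alignments are not given. Of 49763 features, 92 spike-ins with 8 reads in all were left out. Symbols came from GENCODE M21 (49326 of 49671 genes).

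Genotypes were compared with edgeR 4.0.16 in R 4.3.3 (filterByExpr, TMM, robust quasi-likelihood, Benjamini-Hochberg over 19099 genes, threshold 0.05), genotype being the only term. The standard error (SE) was derived from the F statistic. The common biological coefficient of variation was 15.9%. The fit was tested on simulated data. Log2 CPM used a prior count of 2. Alternatives were RLE factors, DESeq2 1.42.0, limma 3.58.1 voom, other filters, equal depth, 2 list-mean covariates and each library left out.

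Replicate numbers follow sample order and pair nothing. Counts of replicates differed beyond sampling noise in every pair (chi-square over degrees of freedom at least 5.46). Members and lists were chosen with earlier results of these data known. Genes named were the members, Flg, the 4 smallest p-values of each surrounding list, and the 3 genes most like the member with the smallest p. The cell type markers named singly, among them Krt5, Thy1, Pdgfra, Pi16 and the collagen genes, fall outside this rule.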

Additional observations from a re-analysis of the deposited data

Results flagged for a closer look

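A library was singled out where its gap to the nearest other library of its group took up more than 0.829 of the group's range (Dixon's 95% value for 4 libraries). Of 60 groups examined, 30 genes in each genotype, 4 met this, and chance alone gives about 1 in 20. None was a member of the axis. Nlrp3 was 3.50 CPM in KO replicate 1, against 5.16 to 5.33 CPM in the other KO libraries. Gsdma was 62.9 CPM in WT replicate 3, against 36.0 to 40.1 CPM in the other WT libraries. Peli1 was 97.0 CPM in KO replicate 3, against 83.1 to 84.5 CPM in the other KO libraries. S100a9 was 1.74 CPM in WT replicate 2, against 3.20 to 3.44 CPM in the other WT libraries.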

How the results depend on the processing

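No paired analysis was possible because the replicate numbers follow sample order and the labels pair no libraries. Members called higher in KO numbered 0 in the main edgeR comparison, 2 with DESeq2 and 1 with limma voom, and 0 in each other alternative, including those without 1 library (0 to 0); members called lower numbered 0 in each. Over all genes, 136 were called higher and 134 lower, with 595 and 590 by DESeq2, 1193 and 1363 by limma voom, 234 and 268 with no filter on low counts, 18 and 3 with the basal keratinocyte list mean as a covariate and 0 and 0 with the white adipocyte list mean. Leaving out 1 library gave 9 (without KO replicate 2) to 679 (without WT replicate 3) higher and 2 to 646 lower, with the same libraries at the extremes.

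With the white adipocyte covariate the log2 fold changes changed sign to -0.079 for Il1a, 0.10 for Il1rn, -0.12 for Il1rap, 0.054 for Il18 and 0.21 for Il18r1. This covariate overlapped between genotypes only through KO replicate 3 and WT replicate 3, so its part can hardly be told apart from that of genotype. With the basal keratinocyte covariate they changed sign to -0.11 for Il1rap, 0.091 for Il1f8 and 0.12 for Il1f9, and Il1r2 stood at 0.07. That covariate did not overlap between genotypes, so its part in these values cannot be told apart from that of genotype. Il18r1, close to 0 in the main comparison, was 0.0096 with RLE factors, 0.0087 with DESeq2 and 0.046 with limma voom. Leaving out 1 library gave -0.070 to 0.088 for Il1rap and -0.064 to 0.11 for Il18r1; the cause of these changes was not tested. Flg lost its call with either covariate, at -1.30 ± 0.19 with white adipocytes (SE, edgeR adjusted p = 0.0901) and -1.28 ± 0.22 with basal keratinocytes (0.0898), against -1.27 ± 0.12 in the main comparison. The smallest adjusted p without 1 library was 0.0875 for Il1r1 and 0.0902 for Il1r2. Thinned to the smallest library, the SE was 0.27 for Il1a and 0.26 for Il1b, against 0.26 and 0.28 at full depth.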
